A study of Mus musculus with 2 samples.

Results

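Fatty acid oxidation was followed through 10 genes of the pathway, chosen by symbol out of the 27998 genes of the matrix. They are Acsbg1, Cpt1a, Cpt2, Acadvl, Acadl, Acadm, Hadha, Hadhb, Acaa2 and Ppara, and each symbol matched 1 row. The data were single-cell transcriptomes from male C57BL/6 mice, whose lateral subventricular zone, a neural stem cell niche in the ventricle wall, was dissected. One pool held 8 mice aged 22 months and the other 4 mice aged 2 months, with 1 library for each age. Cells were sorted as GLAST-positive (a glutamate transporter of astrocytes and stem cells) and negative for O4, Ter119 and CD45, and 8000 sorted events entered the Chromium 3' workflow per library. No label tied the library number on a barcode to an age, so results are given for library 1 and library 2 without an age.

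Mitochondrial β-oxidation shortens fatty acids by a pair of carbons in each turn and feeds the respiratory chain. A fatty acid is first joined to coenzyme A, then carried across the inner mitochondrial membrane as a carnitine ester. A dehydrogenase, a hydratase, a second dehydrogenase and a thiolase then act in turn. In the brain the pathway is active mainly in astrocytes and neural stem cells, and the nuclear receptor PPARα is a known activator of its genes in liver and heart.

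The 1825 cells kept from library 1 and the 2064 kept from library 2 formed 17 clusters, built without the 10 genes and without 77 other genes of lipid catabolism. The comparison classes were named from fixed markers and are meant in the sense of "like". Activated-like cells (stem cells or transit amplifying progenitors) numbered 171 in library 1 and 325 in library 2, and neuroblast-like cells 361 and 495. The quiescent-like class, 809 and 652 cells, held markers that quiescent stem cells and astrocytes have in common, and it may hold both. A further 364 and 536 cells, in clusters c1, c2, c11 and c14, met no class and stayed unnamed. The median UMI count per cell (a UMI counts 1 captured transcript once) was 11308 and 10717 in activated-like cells, 3554 and 5041 in neuroblast-like cells, and 3621 and 3616.5 in quiescent-like cells. Both libraries held 4 barcode sequences in common. The summed level of the 20 quiescent markers was 3994 and 3550 CPM in activated-like cells, 3063 and 2336 CPM in neuroblast-like cells, and 54443 and 50730 CPM in quiescent-like cells, where CPM is the UMI count scaled to a class total of 1000000.

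The genes lie on 9 chromosomes, since Hadha and Hadhb are neighbours. In GRCm38 with GENCODE annotation, Acsbg1 spans chr9:54604877-54661870, Cpt1a chr19:3322334-3385733, Cpt2 chr4:107903981-107923610 and Acadvl chr11:70010183-70015411. Acadl spans chr1:66830839-66863277, Acadm chr3:153922357-153944632 and Ppara chr15:85734983-85802819. All 10 are protein-coding. Hadha (chr5:30118304-30155162, minus strand) and Hadhb (chr5:30155248-30184593, plus strand) stand head to head. Garem2 overlaps Hadha and Dvl2 overlaps Acadvl on the opposite strand, and Gm15793 overlaps Acadl on the same strand. The sources used here do not state whether counting used strand. Whether reads of these neighbours entered the counts of Hadha, Acadvl and Acadl was not examined.

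RefSeq (GRCm38.p6) gave a promoter window for 9 of the 10 genes, all but Acaa2. The 250 bases before the RefSeq start, less any annotated exon in them, are shown for 5 genes: Acsbg1, which had the fewest CG dinucleotides, Cpt1a, Acadvl and Acadm, which held a nuclear receptor half-site, and Hadhb, whose stretch lies between its own start and that of Hadha. The RefSeq start used for Cpt1a lies inside the gene span given above, so the Cpt1a stretch and its half-site are within that span. Capitals mark AGGTCA or its reverse complement.
Acsbg1, chr9:54661886-54662135, minus strand: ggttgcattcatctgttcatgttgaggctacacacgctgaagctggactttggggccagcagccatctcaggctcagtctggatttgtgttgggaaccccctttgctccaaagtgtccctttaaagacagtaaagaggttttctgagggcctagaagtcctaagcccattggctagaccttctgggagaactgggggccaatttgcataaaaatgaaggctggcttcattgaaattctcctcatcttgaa
Cpt1a, chr19:3323051-3323284, plus strand: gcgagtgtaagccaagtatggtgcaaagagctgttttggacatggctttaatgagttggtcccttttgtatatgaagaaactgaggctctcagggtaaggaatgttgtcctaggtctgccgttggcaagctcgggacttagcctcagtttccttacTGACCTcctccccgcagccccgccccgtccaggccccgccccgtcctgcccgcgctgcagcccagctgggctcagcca
Acadvl, chr11:70015429-70015678, minus strand: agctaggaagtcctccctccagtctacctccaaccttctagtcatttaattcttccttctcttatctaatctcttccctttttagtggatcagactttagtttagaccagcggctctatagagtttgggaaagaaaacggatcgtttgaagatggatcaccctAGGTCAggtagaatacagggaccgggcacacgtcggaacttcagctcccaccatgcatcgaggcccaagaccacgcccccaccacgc
Acadm, chr3:153944644-153944893, minus strand: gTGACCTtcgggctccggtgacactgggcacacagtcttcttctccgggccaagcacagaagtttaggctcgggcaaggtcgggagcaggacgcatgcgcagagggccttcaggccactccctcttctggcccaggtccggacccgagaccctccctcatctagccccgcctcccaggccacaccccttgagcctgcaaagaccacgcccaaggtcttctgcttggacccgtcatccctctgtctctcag
Hadhb, chr5:30155163-30155247, plus strand: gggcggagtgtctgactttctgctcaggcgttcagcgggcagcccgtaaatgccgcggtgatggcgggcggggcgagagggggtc
The RefSeq starts of Hadha and Hadhb leave 272 bases between them, so the 85 bases shown for Hadhb are also upstream of Hadha on the other strand; an annotated first exon of Hadha fills most of the rest of the interval. Over the whole windows, AGGTCA, searched on both strands, was found in 3 of the 9 windows and in 14.0% of 32851 RefSeq windows of the same length. The direct repeat AGGNCANAGGNCA, in which a half-site is repeated after 1 base, was in 0 of 9 and in 0.338% of all windows. TCAAGGTCA, which contains AGGTCA, was in 0 of 9 and in 0.387%. The Acsbg1 window had 1 CG dinucleotide and 48.4% G and C, whereas the other 8 windows had 9 to 27 CG dinucleotides. The median over all windows was 6.00 CG dinucleotides and 52.4% G and C. A match here describes letters only.

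In activated-like cells 8 of the 9 genes with enough UMIs were at least 1.5-fold lower than in quiescent-like cells in both libraries, the rule for a call, and 0 were higher. A gene entered with at least 20 UMIs over both classes in each library. By the same rule 28.2% of 10653 genes were lower in activated-like cells and 24.0% were higher. The exception was Hadha, and Ppara was below the UMI minimum. Together the 10 genes had 219 CPM (interval 199 to 241) in activated-like cells of library 1, against 1432 CPM (1391 to 1474) in quiescent-like cells. In library 2 the sum was 203 CPM (189 to 219) in activated-like cells, against 1068 CPM (1029 to 1109) in quiescent-like cells. The sum was thus 6.54-fold lower in library 1 and 5.25-fold lower in library 2. The median log2 ratio of the 9 genes was -2.64 and -2.34, beside -0.02 and -0.03 for all genes tested. With 1 library per age there is no replicate of an age, no test was made, and every interval is a 95% interval that covers counting error only.

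**Figure D1:**
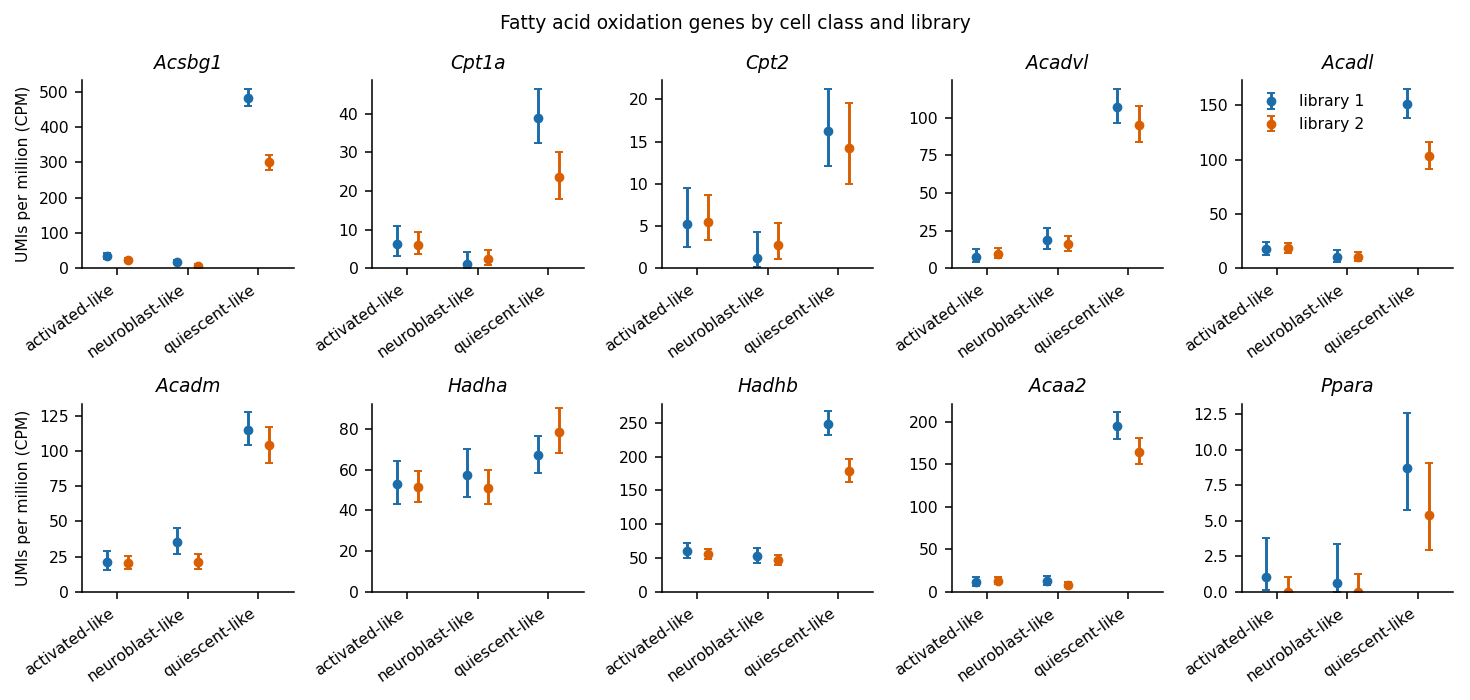
Level of each of the 10 genes (y axis, CPM, linear from 0) in activated-like, neuroblast-like and quiescent-like cells, with 1 point per library and exact 95% Poisson intervals. For 9 of the 10 genes the quiescent-like points stand clear above the others, while Hadha lies between 51.0 and 78.5 CPM in all 3 classes.

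Acsbg1 encodes a very long-chain acyl-CoA synthetase, an enzyme of the activating step that is enriched in astrocytes. It had 34.3 and 23.3 CPM in activated-like cells of libraries 1 and 2, against 483 and 300.2 CPM in quiescent-like cells. That is 14.1-fold lower in library 1 (ratio 0.0711, interval 0.0547 to 0.0910) and 12.9-fold lower in library 2 (ratio 0.0777, interval 0.0609 to 0.0979). The activated-like levels of both libraries lay within the interval of oligodendrocyte-like cells in library 1 (20.9 CPM, 9.56 to 39.7), read as background. That interval rests on 9 UMIs, and neuroblast-like cells of library 2 had less, 7.47 CPM. How much of the activated-like level is background is thus not settled, and the size of these folds is not firm. Among the genes called, Acsbg1, Acadvl and Acaa2 had the largest fold estimates, from 9.63-fold to 17.1-fold lower.

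The carnitine shuttle is opened by Cpt1a, the outer-membrane palmitoyltransferase that limits the rate of entry, and closed by Cpt2 on the inner membrane. Cpt1a had 6.24 and 6.12 CPM in activated-like cells of libraries 1 and 2, against 38.9 and 23.5 CPM in quiescent-like cells, 6.22-fold (3.44 to 12.4) and 3.84-fold (2.30 to 6.63) lower. For Cpt2 the levels were 5.20 and 5.54 CPM in activated-like cells, against 16.2 and 14.2 CPM in quiescent-like cells. These are 3.11-fold (1.56 to 6.86) and 2.57-fold (1.44 to 4.73) lower, and the intervals overlap those of Cpt1a. Cpt2 was among the least sampled, with 10 and 19 UMIs in activated-like cells, against 52 and 37 in quiescent-like cells.

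The acyl-CoA dehydrogenases take the first oxidation step, Acadvl on very long, Acadl on long and Acadm on medium chains. Acadvl had 7.80 and 9.91 CPM in activated-like cells of libraries 1 and 2, against 107 and 95.4 CPM in quiescent-like cells, which is 13.7-fold (8.22 to 24.8) and 9.63-fold (6.71 to 14.2) lower. Acadl had 17.7 and 18.7 CPM in activated-like cells, against 151 and 103 CPM in quiescent-like cells, 8.54-fold and 5.53-fold lower. Acadm had 21.3 and 20.4 CPM in activated-like cells, against 115 and 104 CPM in quiescent-like cells, 5.41-fold and 5.07-fold lower. All 3 dehydrogenases were therefore called lower, a call that 28.2% of 10653 genes met.

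Hadha and Hadhb encode the α and β subunits of the mitochondrial trifunctional protein, which carries out the last 3 steps on long chains. Hadhb had 60.9 and 55.7 CPM in activated-like cells of libraries 1 and 2, against 249 and 179 CPM in quiescent-like cells, 4.10-fold (3.37 to 5.02) and 3.22-fold (2.72 to 3.83) lower. Hadha had 53.1 and 51.3 CPM in activated-like cells, against 67.2 and 78.5 CPM in quiescent-like cells. The Hadha ratio was 0.790 (interval 0.618 to 1.00) in library 1 and 0.653 (0.531 to 0.803) in library 2, so it missed the call in library 1. The subunit genes, though head to head, thus had unequal ratios. Hadhb gave 1.15 UMIs per Hadha UMI in activated-like cells of library 1 (interval 0.872 to 1.51), against 3.71 (3.19 to 4.34) in quiescent-like cells. In library 2 it gave 1.09 (0.880 to 1.34) in activated-like cells, against 2.28 (1.93 to 2.71) in quiescent-like cells. This ratio is taken within a class and does not depend on the scaling to total UMIs. After each cell was thinned to 2000 UMIs the activated-like ratio was 1.92 in both libraries, resting on 12 and 24 Hadha UMIs. Its intervals were 0.915 to 4.23 and 1.15 to 3.28. Thinned quiescent-like cells had 4.05 (3.24 to 5.11) and 2.28 (1.79 to 2.91), so after thinning the intervals of the classes overlapped in both libraries.

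**Figure D2:**
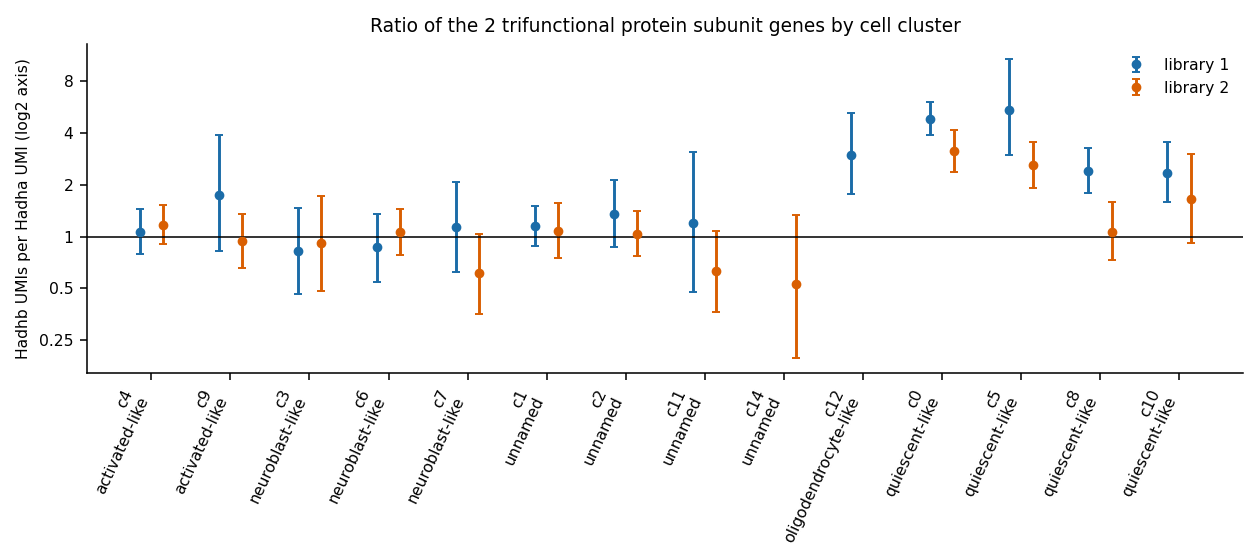
Hadhb UMIs per Hadha UMI (y axis, log2) by cell cluster and library, with exact 95% intervals. In library 1 the activated-like and neuroblast-like clusters lie between 0.828 and 1.75, and all 4 quiescent-like clusters lie above 2. In library 2 the quiescent-like clusters range from 1.07 (c8) to 3.13 (c0).

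Acaa2 encodes the mitochondrial thiolase of the last step. It had 11.4 and 12.5 CPM in activated-like cells of libraries 1 and 2, against 195 and 165 CPM in quiescent-like cells. At 17.1-fold (11.2 to 27.4) and 13.2-fold (9.61 to 18.5) lower it fell most of the 9 genes in both libraries. Ppara, which encodes PPARα, gave 2 UMIs and 0 UMIs in activated-like cells, against 28 and 14 UMIs in quiescent-like cells. In CPM this was 1.04 and 0 in activated-like cells, against 8.71 and 5.39 in quiescent-like cells. In library 1 the ratio was 0.120 (interval 0.0138 to 0.474). In library 2 the 0 UMIs of activated-like cells allow up to 0.874 CPM (3 UMIs in the class), against an interval of 2.95 to 9.04 CPM in quiescent-like cells.

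**Figure D3:**
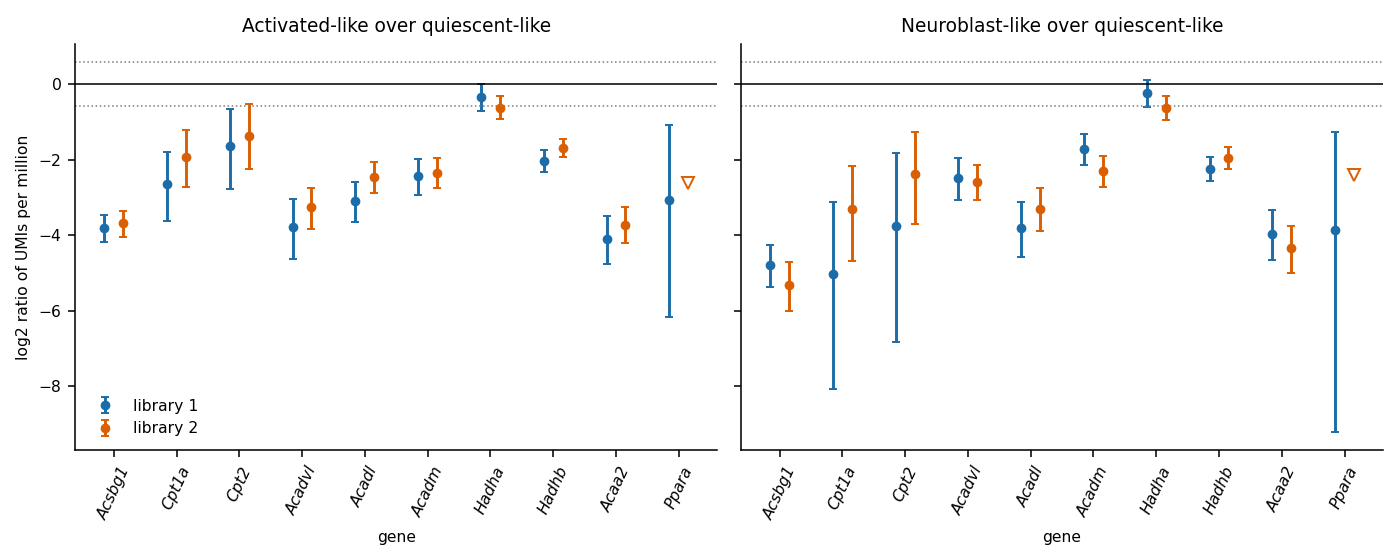
Log2 ratio of CPM for each gene in activated-like (left) and neuroblast-like (right) over quiescent-like cells, 1 point per library with exact 95% intervals; dotted lines mark 1.5-fold and an open triangle marks Ppara where the first class had 0 UMIs, drawn at the ratio that 3 UMIs would give. In both panels the 8 genes called lie below the lower dotted line in both libraries and Hadha lies near it.

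Depth differed between these classes, so the same comparison was made in UMIs per cell. A cell of the activated-like class carried 2.46 and 2.15 UMIs of the 10 genes in libraries 1 and 2, against 5.69 and 4.26 UMIs in a quiescent-like cell. On this scale 5 of the 9 genes were lower past 1.5-fold in both libraries and 1 was higher, where 9.09% of 10653 genes were lower and 69.3% higher. They were Acsbg1 (4.97-fold and 4.86-fold lower), Acadvl (4.86-fold and 3.64-fold), Acadl (3.02-fold and 2.09-fold), Acadm (1.91-fold and 1.92-fold) and Acaa2 (6.03-fold and 4.97-fold). Cpt1a, Cpt2 and Hadhb were not called, with ratios per cell from 0.454 to 1.03. Hadha was higher, at 0.596 and 0.542 UMIs per activated-like cell, against 0.267 and 0.313 UMIs per quiescent-like cell. Its share of UMIs and its number per cell thus point opposite ways.

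In neuroblast-like cells 8 of the same 9 genes were called lower than in quiescent-like cells and 0 higher, where 28.7% of 10671 genes were lower and 24.7% higher. The comparison shares the quiescent-like cells with the one above. The 10 genes summed to 208 and 166 CPM in neuroblast-like cells of libraries 1 and 2, 6.87-fold (6.16 to 7.68) and 6.44-fold (5.85 to 7.11) lower than in quiescent-like cells. Acsbg1 had 17.4 and 7.47 CPM in neuroblast-like cells, against 483 and 300.2 CPM in quiescent-like cells. The neuroblast-like levels did not stand above the 20.9 CPM (interval 9.56 to 39.7) of oligodendrocyte-like cells in library 1, which is read as background, so no fold is given. Acaa2 had 12.6 and 8.15 CPM, within its interval in the same oligodendrocyte-like cells (0.562 to 16.8 CPM), so no fold is given for it either. Cpt1a gave 2 and 7 UMIs and Cpt2 gave 2 and 8 UMIs in neuroblast-like cells, so their folds carry wide intervals. Ppara gave 1 UMI and 0 UMIs in neuroblast-like cells, where 0 UMIs allow up to 1.02 CPM in library 2. Hadha again was not called, with 57.5 and 51.0 CPM in neuroblast-like cells, a ratio of 0.856 (0.666 to 1.09) in library 1 and 0.649 (0.522 to 0.805) in library 2. The 8 calls also held in UMIs per cell, with 0 genes higher, on a scale where 21.4% of all genes were lower and 35.3% higher. The summed genes came to 0.964 and 0.986 UMIs per neuroblast-like cell, against 5.69 and 4.26 UMIs per quiescent-like cell. Hadhb gave 0.917 and 0.913 UMIs per Hadha UMI in neuroblast-like cells.

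The sum in neuroblast-like over activated-like cells had a ratio of 0.952 (interval 0.823 to 1.10) in library 1 and 0.815 (0.724 to 0.916) in library 2. Of 7 genes with enough UMIs, 2 were lower in neuroblast-like cells, where the background was 12.3% of 9618 genes, and 1 was higher, where it was 10.6%. Acsbg1, the first of the lower genes, had a ratio of 0.506 (interval 0.315 to 0.794) in library 1 and 0.321 (0.190 to 0.519) in library 2. Its activated-like levels, 34.3 and 23.3 CPM, lay within the interval of oligodendrocyte-like cells in library 1 (9.56 to 39.7 CPM), which rests on 9 UMIs. The neuroblast-like level of library 2, 7.47 CPM, lay below that interval, so the interval does not settle which of these levels are background. The size of the difference is therefore not read. Acadl, the other lower gene, was 1.64-fold and 1.77-fold lower, and its interval in library 1 (0.901 to 3.09) holds 1. Acadvl was higher, with 19.2 and 16.0 CPM in neuroblast-like cells, against 7.80 and 9.91 CPM in activated-like cells. Per cell Acadvl stood at 0.0886 and 0.0949 UMIs per neuroblast-like cell, against 0.0877 and 0.105 UMIs per activated-like cell. Its call was also lost under the stricter cell filter and with marked doublets kept (log2 ratios in library 2 of 0.50 and 0.51) and with the unnamed clusters counted as activated (0.08 in both libraries). After thinning to 2000 UMIs the gene was below the UMI minimum. In UMIs per cell 5 of the 7 genes were lower and 0 higher in neuroblast-like cells, where 68.5% of 9618 genes were lower and 2.26% higher.

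Single cells show how sparse these transcripts are. Thinned to 2000 UMIs, 71.0% and 67.2% of activated-like cells of libraries 1 and 2 and 67.1% and 73.4% of neuroblast-like cells had no UMI of the 10 genes, against 8.79% and 14.8% of quiescent-like cells. At least 3 of the 10 genes were seen in 0.592% and 0.619% of activated-like cells, against 40.0% and 26.9% of quiescent-like cells. Acsbg1 alone was seen in 8.28% (interval 4.60 to 13.5%) and 3.41% (1.71 to 6.01%) of thinned activated-like cells, against 59.5% (55.8 to 63.1%) and 41.1% (37.2 to 45.1%) of quiescent-like cells. In thinned neuroblast-like cells the share was 3.63% and 1.25%. Oligodendrocyte-like cells of library 1, in which Acsbg1 was read as background, had a share of 3.26% (0.678 to 9.23%) after thinning. The Acsbg1 shares of neuroblast-like and activated-like cells lay within that background interval in both libraries. Before thinning, Acsbg1 was seen in 29.8% and 21.8% of activated-like cells, 7.76% and 4.44% of neuroblast-like cells and 76.1% and 57.5% of quiescent-like cells, with 9.09% in oligodendrocyte-like cells of library 1 at a median of 4210 UMIs. Thinning left out 2 and 2 activated-like, 30 and 14 neuroblast-like, 81 and 36 quiescent-like and, in library 1, 7 oligodendrocyte-like cells.

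The oligodendrocyte-like cells of library 1 (99 cells) had another pattern of the same genes. Their sum was 432 CPM (interval 372 to 499). Hadhb stood at 139 CPM, Acadvl at 85.9 CPM and Acadl at 76.6 CPM, while Acaa2 had 4.64 CPM, Acsbg1 20.9 CPM and Cpt1a 0 UMIs, which allows up to 6.97 CPM. They held 60 Hadhb and 20 Hadha UMIs. Library 2 had 9 such cells, too few to describe.

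The quiescent-like class had 4 clusters, which differed in the level of these genes. Cluster c0 (500 and 296 cells in libraries 1 and 2) led with Cxcl14, Slc7a10, Htra1 and Aqp4. Cluster c5 (75 and 215 cells) led with Gfap, S100a6 and Thbs4. Cluster c8 (136 and 73 cells) led with Prss56, Notum and Ecel1, and c10 (98 and 68 cells) with the early-response genes Socs3 and Junb. Of the 20 quiescent markers, 17 passed 1.5-fold over other cells in c0, 16 in c5, 11 in c10 and 7 in c8, so c8 bears its name least firmly. The 10 genes summed to 1796 and 1381 CPM in c0, 1428 and 1062 CPM in c5, 1012 and 599 CPM in c8 and 897 and 745 CPM in c10. The order of c0 above c5 above c8 and c10 was the same in both libraries, and c8 and c10 exchanged places. Each of these clusters lay above every other cluster of at least 20 cells, the nearest being the oligodendrocyte-like cells of library 1 at 432 CPM.

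Acsbg1 had the widest spread over these clusters in both libraries. It had 702 and 527 CPM in c0, 302 and 206 CPM in c5, 265 and 71.3 CPM in c8, and 191 and 135 CPM in c10. The level in c0 was 3.68-fold that of c10 in library 1 and 7.39-fold that of c8 in library 2. Acadl too was highest in c0 in both libraries, with 191 and 123 CPM there, against 92.9 and 62.7 CPM in c8. Acadm was highest in c5, at 189 and 117 CPM. Hadha ran the other way, with 82.7 and 117 CPM in c8, against 60.4 and 69.4 CPM in c0. These 4 of the 9 genes with at least 20 UMIs over the clusters in each library were at least 1.5-fold apart in both libraries with the same cluster on top, where 41.0% of 9276 genes were, a share near that of the set. With each cell's own CPM averaged, 2 genes met the rule, Acsbg1 and Acadl. Accordingly Hadhb per Hadha UMI was 2.40 and 1.07 in c8, against 4.83 and 3.13 in c0.

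**Figure D4:**
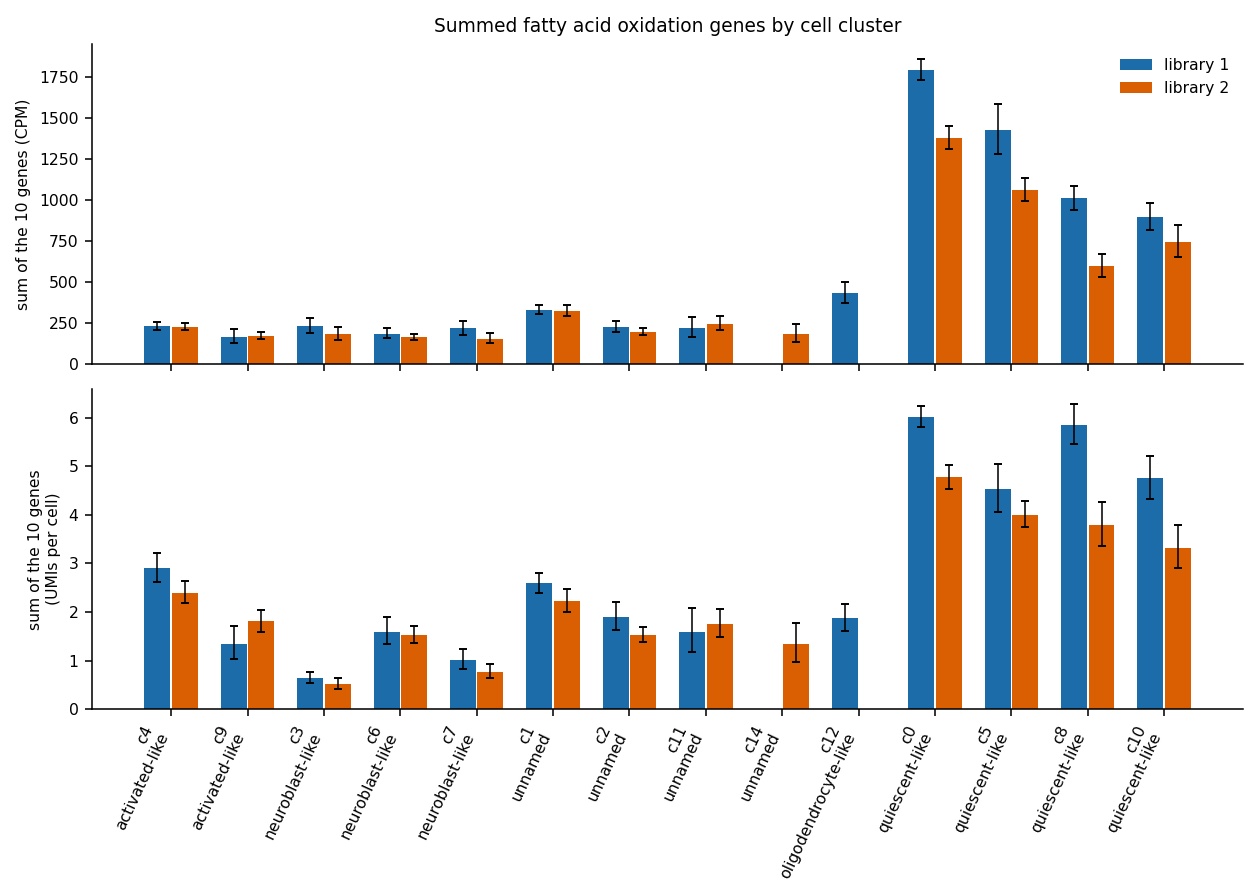
Summed level of the 10 genes in each cluster with at least 20 cells in a library, in CPM (top) and UMIs per cell (bottom), with exact 95% Poisson intervals; clusters are grouped by class. The activated-like and neuroblast-like clusters range from 155 to 233 CPM and the 4 quiescent-like clusters from 599 to 1796 CPM.

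The unnamed clusters fell on the low side. Cluster c1 (234 and 162 cells), led by the early-response genes Arc, Atf3 and Nr4a1, had 332 and 323 CPM. Cluster c2 (98 and 253 cells), led by Ung, Helt and Dll3, had 227 and 196 CPM, and c11 (32 and 86 cells) had 218 and 247 CPM. In c1 Acaa2 had 32.7 and 39.3 CPM and Acadvl 32.2 and 34.8 CPM, above the 12.5 and 15.7 CPM and the 7.87 and 9.09 CPM of the activated-like cluster c4 with S-phase histone genes. Hadha stayed within a narrow band, at 57.2 and 53.6 CPM in c1, 45.3 and 46.7 CPM in c2 and 59.1 and 55.0 CPM in c4.

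Library 1 was compared with library 2 within each class. In quiescent-like cells 3 of the 10 genes were at least 1.5-fold higher in library 1 and 0 lower, where 8.31% of 11192 genes were higher and 8.27% lower. Acsbg1 was 1.61-fold higher (interval 1.48 to 1.76), Cpt1a 1.66-fold (1.21 to 2.29) and Ppara 1.62-fold (0.823 to 3.32), the last on 28 and 14 UMIs. The sum of the 10 genes was 1.34-fold higher (1.28 to 1.41). Acadl, at 1.47-fold (1.26 to 1.71), and Hadhb, at 1.39-fold (1.24 to 1.56), lay below the threshold, and Hadha had a ratio of 0.856 (0.703 to 1.04). The sum was higher in library 1 in each cluster, by 1.30-fold in c0, 1.34-fold in c5, 1.69-fold in c8 and 1.20-fold in c10. Acsbg1 was 1.33-fold higher (1.20 to 1.48) in c0, 1.47-fold (1.10 to 1.94) in c5, 3.71-fold (2.56 to 5.53) in c8 and 1.41-fold (0.971 to 2.08) in c10. Cluster c0, the highest in Acsbg1, took 500 of 809 quiescent-like cells in library 1 and 296 of 652 in library 2.

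In activated-like cells 0 of 9 genes passed 1.5-fold in either direction, where 8.20% of 10244 genes were higher in library 1 and 6.33% lower, and the sum had a ratio of 1.08 (0.952 to 1.22). In neuroblast-like cells 3 of 7 were higher in library 1 and 0 lower, where 10.0% of 9964 genes were higher and 6.72% lower. They were Acsbg1 at 2.32-fold (1.29 to 4.24), Acadm at 1.68-fold (1.15 to 2.44) and Acaa2 at 1.54-fold (0.817 to 2.89). The neuroblast-like sum was 1.26-fold higher in CPM (1.09 to 1.45) and had a ratio of 0.978 in UMIs per cell. The 12 oligodendrocyte markers were also higher in library 1. Their sum was 557 CPM in library 1 and 234 CPM in library 2 among quiescent-like cells, 772 and 73.2 CPM among activated-like cells and 356 and 77.8 CPM among neuroblast-like cells, with 0 of the 12 at 0 UMIs. Their part in the differences between libraries was not tested. With 1 library per age, a library and its pool of animals cannot be told apart.

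**Figure D5:**
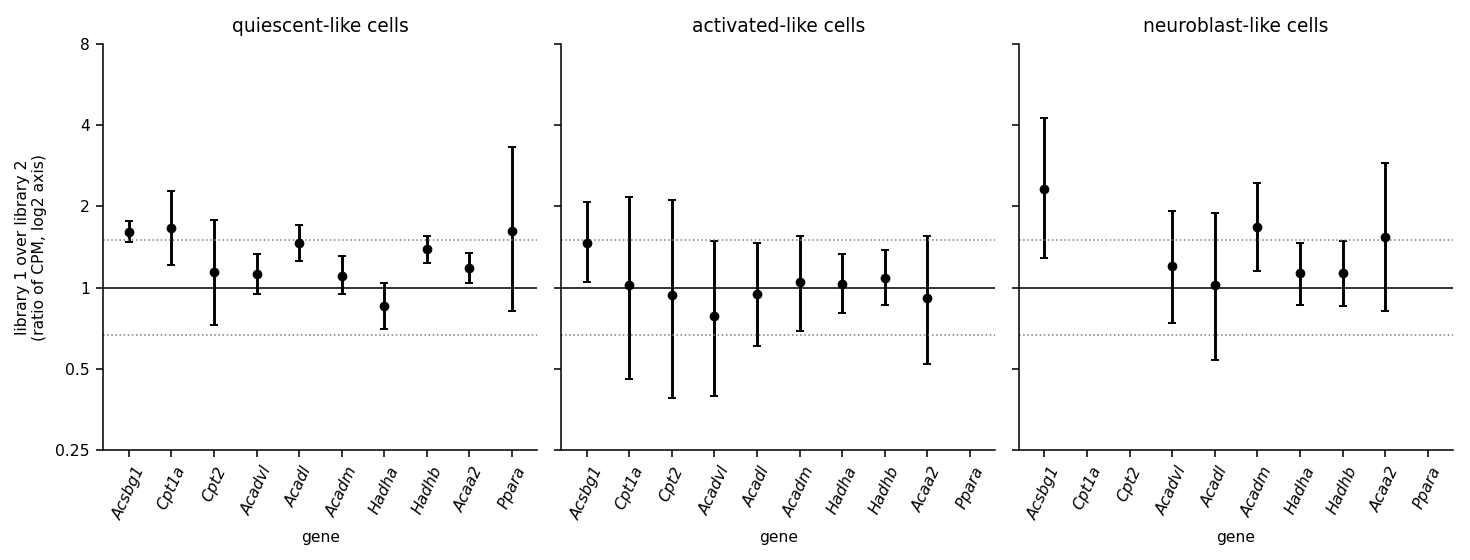
Ratio of CPM in library 1 over library 2 (y axis, log2) for each gene in quiescent-like, activated-like and neuroblast-like cells, with exact 95% intervals; genes under 20 UMIs are not drawn and dotted lines mark 1.5-fold. In quiescent-like cells Acsbg1, Cpt1a and Ppara lie above the upper line, and in activated-like cells none does.

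Beyond the 10 genes, 77 genes of the same metabolism were read in 7 lists. In activated-like over quiescent-like cells 61 had enough UMIs, and 46 were lower and 2 higher, against the 28.2% and 24.0% of all genes given above. The lists were chosen with results of these cells known and are not independent evidence of a direction. In UMIs per cell 9 were lower and 10 higher, where the shares of all genes given above were 9.09% and 69.3%. In neuroblast-like over quiescent-like cells 49 of 61 were lower and 1 was higher, where 28.7% of 10671 genes were lower and 24.7% higher.

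Fatty acid uptake and activation had 6 of 9 genes lower in activated-like cells. Acsl6, an acyl-CoA synthetase, had 25.0 and 23.6 CPM in activated-like cells of libraries 1 and 2, against 343 and 276 CPM in quiescent-like cells. Slc27a1, a fatty acid transporter, was 12.4-fold and 10.1-fold lower, and Acsl3 7.48-fold and 8.18-fold lower. In the list named for the carnitine shuttle 5 of 5 were lower. Among them were Slc25a20, the carnitine-acylcarnitine carrier (4.09-fold and 3.47-fold), Cpt1c (3.92-fold and 4.11-fold) and Mlycd, which removes the Cpt1 inhibitor malonyl-CoA (3.67-fold and 3.42-fold). In CPM neuroblast-like cells had more Cpt1c and Slc25a20 than activated-like cells, by 2.45-fold and 1.75-fold for Cpt1c and 1.84-fold and 1.57-fold for Slc25a20. Per cell this did not hold, with 0.0942 and 0.0788 UMIs of Cpt1c per neuroblast-like cell, against 0.0936 and 0.0800 per activated-like cell, and 0.0886 and 0.0949 UMIs of Slc25a20 per neuroblast-like cell, against 0.117 and 0.108 per activated-like cell.

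Other mitochondrial β-oxidation and electron transfer genes were lower in 11 of 15 cases. The isomerases Ech1 and Eci1, for unsaturated chains, were 4.91-fold and 4.14-fold and 4.94-fold and 3.86-fold lower in libraries 1 and 2. Hadh, the dehydrogenase for shorter chains, was 4.38-fold and 3.25-fold lower in activated-like cells and 11.8-fold and 8.73-fold lower in neuroblast-like cells. In the peroxisomal list 10 of 11 were lower, with Crot at 5.01-fold and 3.72-fold and the thiolase Acaa1a at 4.42-fold and 4.31-fold.

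Among ketone body genes Bdh1, a dehydrogenase of ketone bodies, was 2.36-fold and 2.20-fold lower in CPM in activated-like cells of libraries 1 and 2. Per cell it was higher, with 0.222 and 0.203 UMIs per activated-like cell, against 0.185 and 0.169 per quiescent-like cell. Oxct1 and Acat1, which serve ketone body use, were not called, with CPM ratios of 1.08 and 1.27 for Oxct1 and 0.905 and 1.16 for Acat1. Both were named after their values were seen.

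Among nuclear receptors and coactivators 5 of 7 were lower and 2 higher. Ppargc1a, the coactivator PGC-1α, had 10.4 and 10.8 CPM in activated-like cells of libraries 1 and 2, against 60.0 and 58.5 CPM in quiescent-like cells, and gave 3 and 2 UMIs in neuroblast-like cells. Esrra was 3.23-fold and 3.89-fold lower and Rxrb 1.78-fold and 1.93-fold lower. Nrf1, a transcription factor of mitochondrial genes, was higher, by 1.84-fold (1.37 to 2.47) and 1.54-fold (1.18 to 2.03), as was the corepressor Ncor1, by 1.56-fold and 1.53-fold. In UMIs per cell Rxrb was higher, at 0.216 and 0.154 per activated-like cell, against 0.136 and 0.112 per quiescent-like cell. PPAR-responsive lipid genes were lower in CPM in 7 of 9 cases. Angptl4 gave 2 and 1 UMIs in activated-like cells, against 83 and 56 UMIs in quiescent-like cells, and Pdk4 was 10.2-fold and 5.44-fold lower. Acot1 was 3.21-fold and 2.43-fold lower in CPM, but per cell it had 1.18 and 1.28 UMIs in activated-like cells, against 1.33 and 1.18 in quiescent-like cells.

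The genes whose levels ran most like the sum of the 10 were looked up over the 23 combinations of cluster and library with at least 50 cells. Pearson's r on log2(CPM + 10) was taken over 6450 genes outside the lists, as a description, and the groups share library and depth. Apoe, Gstm5, Gstm1 and Ndrg2 had r of 0.99 and Uqcrc1 0.98. Closest to Acsbg1 were Gpr37l1 and Mt1 (0.98), Ntsr2, Slc1a2 and Slc38a3 (0.97 each). Cpt1a was closest to Cntfr (0.95), and Ppara to Aldoc (0.92). Within the set, Acadl and Hadhb had r of 0.97, while Hadha and Hadhb had 0.46. The pairs with Hadha ranged from 0.24 to 0.59 and the pairs without it from 0.63 to 0.97.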

How the data were processed

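UMI counts per gene and barcode, deposited by the authors as whole numbers in 1 matrix without normalization, were measured in 2 libraries of sorted cells. Per the submitters' processing notes, Cell Ranger 2.0.0 and the builds GRCm38.p3 and mm10 were used; how cells were called is not given in the sources used here. Library 1 had 1849 barcodes and 10440891 UMIs, and library 2 had 2088 barcodes and 13330251 UMIs. The cell filter, a minimum of 500 genes and a mitochondrial share of UMIs up to 10%, removed 9 and 13. Doublets marked by Scrublet in scanpy 1.11.5 at an expected rate of 1.5% (15 and 11) were left out.

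Cells were scaled to 10000 UMIs and clustered on 2000 variable genes, 30 components and 15 neighbours by Leiden (leidenalg 0.10.2, resolution 1, Python 3.11.15, scipy 1.17.1). A cluster was named for the class with the most raised markers, needing 3 at 1.5-fold each detected in 10% or more of its cells. The rule was revised once after the clusters were seen, since its first form named cluster c1 endothelial from markers seen in few of its cells. Levels are summed UMIs scaled to a class total of 1000000 (CPM) with exact Poisson intervals, ratios have exact conditional binomial intervals and shares Clopper-Pearson intervals, all at 95%. The ratio and its call were tested on simulated data. Sequences and motifs came from RefSeq windows of GRCm38.p6 and gene positions from GENCODE vM21.

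The 10 genes and the lists were chosen with earlier results of these data known. Besides the 10 genes, the text names up to 3 genes per list with the largest mean change past 1.5-fold in the direction of the list, and up to 2 against it, with at least 50 UMIs in 1 class of each library. Of these, 2 genes are not reported here. Alternatives changed the cell filter, doublets, resolution, scaling, thinning, fold threshold and UMI minimum. Alternatives with the unnamed clusters c1, c2 and c11 as activated, and with c0 alone as quiescent, were added after seeing the data.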

Additional observations from a re-analysis of the deposited data

How the results depend on the processing

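No paired analysis was possible because each age has 1 library, so that the groups have fewer than 2 replicate numbers to pair. With 1 library per class and pool there is no replicate to leave out, and depth limits Cpt1a, Cpt2 and Ppara most. Neither the calls against quiescent-like cells at a fold of 2 nor those with another filter, doublet setting or resolution left the main count by over 1.5 times. Scale mattered most. In mean UMIs per cell 5 genes were lower in activated-like cells, with log2 sums of -1.21 and -0.99 in libraries 1 and 2, and Cpt2 turned to 0.04 in library 2. On that scale the neuroblast-like sums were -2.56 and -2.11 against quiescent-like cells and -1.35 and -1.12 against activated-like cells with 5 genes lower, Acadvl turned to -0.14 in library 2, and 9 listed genes were lower. With each cell's own CPM averaged, neuroblast-like over activated-like cells gave 1 lower gene and a sum of 0.02 in library 1, and 2 genes differed over the quiescent-like clusters. Without mitochondrial and ribosomal protein UMIs the activated-like sums were -2.56 and -2.25. Under a stricter cell filter (1000 genes, 5% mitochondrial), the library 2 sums were -2.52 in activated-like and -2.83 in neuroblast-like cells. Thinned to 2000 UMIs, the activated-like sum of library 1 was -3.04, neuroblast-like over activated-like cells gave 1 lower gene and a sum of 0.16 in library 1 with Acadl at 1.20, 1 gene was higher in library 1 among quiescent-like cells, and the library ratio of the activated-like sum was -0.14. At a fold of 2, neuroblast-like over activated-like cells and the library comparison each gave 0 genes; with no UMI minimum the first gave 4. With the unnamed clusters counted as activated, the sums were -2.44 and -2.25, and neuroblast-like over activated-like cells gave 5 lower genes and -0.34 in library 1. With c0 alone as quiescent, the sums were -3.04 and -2.76 in activated-like and -3.11 and -3.06 in neuroblast-like cells. The cause of these shifts was not tested. Of 699 values of single genes under the alternatives that could change them, 616 stayed within the counting interval of the value reported and the others left it. Some of those also turned sign, as Hadha did in activated-like over quiescent-like cells in UMIs per cell (ratios of 2.23 and 1.73).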
